A study of Homo sapiens with 9 samples.

Results

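The 220 guides described here target 22 genes of the SAGA, ATAC and TFIID coactivator complexes, with 10 guides per gene, out of 11170 guides against 1117 genes in a pooled sgRNA screen. They were chosen by the name of the target gene, with earlier results of these data known. The names came from a list of SAGA and ATAC subunits and from all targets beginning with TAF, TADA or SUPT and a digit. POLE4 was on the list but matched no guide in the table. The targets were KAT2A, KAT2B, TADA3, CCDC101, TADA2B, YEATS2, ZZZ3, MBIP, DR1, POLE3, TADA1, SUPT3H, SUPT7L, SUPT20H, TAF5L, TAF6L, TAF9, TAF10, TAF12, USP22, ENY2 and ATXN7. No subunit found in TFIID alone was among them, so TFIID is represented only by TAF9, TAF10 and TAF12, which it shares with SAGA. The count table names the guides without their sequences, so none is printed.

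The screen was done in U251, an established human glioma cell line carrying stably expressed sgRNAs. Cells received 0, 200 or 1500 µM temozolomide, an alkylating drug used against glioma, for 72 hours, and the guides were then counted in cellular DNA from 3 libraries per dose, numbered 1 to 3. Titles name the doses in µM but the protocol text has nM, so µM serves here only as the name of a group. All groups carry the same pool in the same line, and the nuclease, the number of clones and whether the numbers mark separate cultures are not stated. P-values therefore reflect variation among these 9 libraries alone, and that variation may be technical. Library totals lay between 1852340 and 2790563 counts. Libraries with the same number were alike at every dose. Their log2 levels over the tested coactivator guides correlated at 0.73 to 0.88, against 0.35 to 0.54 for differently numbered libraries of one dose, as a description over 203 guides that share each library.

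SAGA is a modular coactivator of RNA polymerase II. One module acetylates histones, another removes ubiquitin from histone H2B, and a core built of histone-fold proteins holds the modules together and contacts the TATA-binding protein. ATAC is a second complex built around the same acetyltransferases, with its own set of further subunits. TFIID binds core promoters and shares some of its histone-fold subunits with SAGA. In a dropout screen a guide against a gene that cells need is expected to become scarce as the cells grow, and a drug can shift that balance.

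Without drug, guides against shared TFIID subunits, some ATAC subunits and ENY2 were scarce, and guides against some SAGA core subunits were plentiful. Levels are given as CPM, counts scaled to a library total of 1000000 after adjustment by edgeR's TMM factors. The level of a gene is the median over its 10 guides in a library, given as the mean over the 3 libraries at 0 µM, and its place is its rank from the lowest among 1117 genes. Over all genes the median of this level was 51.7 CPM, and over the 22 coactivator genes it was 43.9 CPM. No plasmid pool or library from before selection was used here, so how evenly the guides started was not tested. Of the 22 genes, 9 lay in the lowest 25% of all genes and 4 in the highest 25%.

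The guides of the TFIID-shared subunits had a median of 23.2 CPM at 0 µM over 30 guides, against 59.2 CPM over all guides. Of the 30, 10 lay under 10 CPM, against 16.1% of all guides. TAF12, a histone-fold subunit, had 3.66, 12.0 and 17.7 CPM in replicates 1, 2 and 3 (11.1 ± 7.07, SD, n = 3), and ranked 128. TAF10, another histone-fold subunit, had 14.6, 8.64 and 27.1 CPM (16.8 ± 9.40, SD, n = 3), and ranked 166. TAF9, the histone-fold partner of TAF6 and TAF6L, had 29.2, 41.5 and 18.7 CPM (29.8 ± 11.4, SD, n = 3), and ranked 271. TAF10 overlapped both TAF12 and TAF9 in level, while every library of TAF9 lay above those of TAF12. The guides of TAF9 differed widely, between 0 CPM for TAF9.4 and 298 CPM for TAF9.2 as means at 0 µM. The guide TAF12.5 had no count in any of the 9 libraries, which allows up to 3 counts per library.

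Of the ATAC-specific subunits, DR1, POLE3, ZZZ3 and YEATS2 lay below the all-gene median of 51.7 CPM in every library at 0 µM. ATAC-specific here means found in ATAC and not in SAGA, and does not exclude roles outside these complexes. DR1, which with a partner also forms the general transcription repressor NC2, had 3.96, 8.64 and 9.84 CPM at 0 µM (7.48 ± 3.11, SD, n = 3) and ranked 95. Its guide DR1.2 was at 0 in all 9 libraries. POLE3, a histone-fold protein that is also a subunit of DNA polymerase epsilon, had 5.79, 12.2 and 10.3 CPM (9.46 ± 3.32, SD, n = 3) and ranked 115. ZZZ3, a zinc-finger subunit that reads the histone H3 tail, had 17.7 ± 8.63 CPM (SD, n = 3) and ranked 176. YEATS2, which binds acylated histones through its YEATS domain, had 29.1 ± 10.7 CPM (SD, n = 3) and ranked 262. In this order each gene overlapped the next in level, and every library of ZZZ3 and YEATS2 lay above those of DR1. MBIP, a subunit named for its binding to a MAP kinase kinase kinase, had 141, 40.1 and 19.9 CPM (67.0 ± 64.9, SD, n = 3) and ranked 802. It lay above the all-gene median in replicate 1 alone and overlapped ZZZ3 and YEATS2. Its SD was the largest of the 22 genes, and its rank ranged from 203 to 1101 over the 9 libraries.

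The acetyltransferase module held few scarce guides, with 3 of 50 under 10 CPM, against 16.1% of all guides. TADA3, an adaptor found in both SAGA and ATAC, was its lowest gene with 27.2 ± 9.45 CPM (SD, n = 3) and rank 247. KAT2B had 40.8 ± 10.8 CPM and KAT2A, the other and closely related acetyltransferase of these complexes, had 68.0 ± 13.9 CPM (SD, n = 3 each), with ranks of 414 and 814. Every library at 0 µM had KAT2A above KAT2B. TADA2B, the adaptor that marks SAGA rather than ATAC, had 45.5 ± 9.50 CPM, and CCDC101, whose current symbol is SGF29 and whose product reads methylated histone H3, had 55.9 ± 4.60 CPM (SD, n = 3 each). These 2 genes ranked 464 and 637.

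The SAGA core genes were the most abundant group, with a median of 86.8 CPM over 60 guides. SUPT20H, a core subunit, had 97.8, 108 and 91.8 CPM (99.1 ± 8.10, SD, n = 3) and the highest rank of the coactivator genes, 1044. TAF5L, the SAGA counterpart of TFIID's TAF5, had 86.2 ± 23.7 CPM and ranked 1001, and TADA1, a core adaptor, had 70.9 ± 19.4 CPM and ranked 847 (SD, n = 3 each). SUPT7L, a histone-fold subunit, had 56.3 ± 22.0 CPM, and SUPT3H, also a histone-fold subunit, had 53.0 ± 21.8 CPM (SD, n = 3 each). These genes ranked 640 and 586, near the middle of all genes. TAF6L, the SAGA counterpart of TAF6, was the lowest of the core with 42.4 ± 15.3 CPM (SD, n = 3). It ranked 431, and its mean lay below the all-gene median of 51.7 CPM. The range of SUPT20H lay above those of TAF6L, SUPT3H and SUPT7L, and overlapped that of TAF5L.

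The deubiquitinase module was divided. ENY2, a small subunit that also serves in the TREX-2 mRNA export complex, was the lowest of all 22 genes, with 3.66, 5.28 and 9.84 CPM (6.26 ± 3.21, SD, n = 3) and rank 85. USP22, the ubiquitin protease itself, had 60.9, 71.3 and 40.8 CPM (57.7 ± 15.5, SD, n = 3), and ATXN7, which anchors the module to SAGA, had 46.6, 89.3 and 101 CPM (78.9 ± 28.6, SD, n = 3). Both stood above ENY2 in every library at 0 µM, and their own ranges overlapped.

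Guides of one gene differed widely. In the TFIID-shared subunits, guide means at 0 µM spanned 0 to 298 CPM for TAF9, 2.40 to 94.3 CPM for TAF10 and 0 to 169 CPM for TAF12. In the ATAC-specific genes, guide means at 0 µM spanned 2.46 to 317 CPM for YEATS2, 0 to 87.6 CPM for ZZZ3, 11.2 to 418 CPM for MBIP, 0 to 63.2 CPM for DR1 and 2.44 to 74.1 CPM for POLE3. In the acetyltransferase module, guide means at 0 µM spanned 40.9 to 198 CPM for KAT2A, 13.5 to 465 CPM for KAT2B, 6.60 to 134 CPM for TADA3, 15.5 to 222 CPM for CCDC101 and 29.0 to 319 CPM for TADA2B. Within a gene the guides thus spread over a wide range, also where the gene's median was high. In the SAGA core, guide means at 0 µM spanned 7.76 to 425 CPM for TADA1, 27.2 to 311 CPM for SUPT3H, 9.35 to 260.5 CPM for SUPT7L, 7.01 to 791 CPM for SUPT20H, 2.44 to 236 CPM for TAF5L and 1.14 to 186 CPM for TAF6L. In the deubiquitinase module, guide means at 0 µM spanned 2.08 to 384 CPM for USP22, 1.92 to 105 CPM for ENY2 and 13.9 to 466 CPM for ATXN7. Among guides that met the count minimum of 10 counts in at least 3 libraries, the most abundant at 0 µM was SUPT20H.7, with 1981, 91.2 and 302 CPM in replicates 1, 2 and 3. ATXN7.4 followed with 359, 733 and 305 CPM, and KAT2B.4 with 1183, 44.7 and 167 CPM. Replicate 1 stood far above the others for SUPT20H.7 and KAT2B.4, and did so again at 1500 µM for KAT2B.4, with 1025, 45.8 and 162 CPM. The least abundant tested guides were TAF10.6, TAF5L.3 and POLE3.5, with 0, 7.20 and 0 CPM, 7.31, 0 and 0 CPM, and 0, 2.40 and 4.92 CPM. The most abundant guide of a gene held 1.86% of its counts in one library and 73.8% in another for KAT2B. A sum over guides can therefore rest on 1 guide in 1 library.

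At 1500 against 0 µM no coactivator guide or gene passed the test. Guide counts were tested with edgeR's quasi-likelihood test over all 10337 guides that met the minimum, of which 203 target the coactivator genes. DR1 and TAF12 each had 3 of the 17 untested guides. Calls needed a Benjamini-Hochberg adjusted p under 0.05, and 0 of 203 coactivator guides and 0% of all tested guides reached it. The sums over the guides of a gene were tested in the same way over 1117 genes, and 0 of 22 coactivator genes and 0% of all genes passed. At an unadjusted p under 0.05 edgeR gave 1 of the 203 guides, against 0.203% of all guides, and DESeq2 likewise gave 1 against 0.59%. Among sums edgeR gave 0 of 22, against 0.269% of all genes. With the replicate number as a block, which uses the likeness of same-numbered libraries, edgeR called 0 coactivator guides against 0% of all guides and 0 coactivator genes against 0.0895% of all genes. At an unadjusted p it gave 9 of 203 guides against 2.61% of all guides, and 4 of 22 genes against 6.62% of all genes. The edgeR guide fit without the block recovered 0% of 100 guides with a 4-fold change and 0% of 100 with a 16-fold change in simulated counts for this comparison. The block recovered 41% and 79% of them. For sums the shares without the block were 82% and 100%, and with it 100% and 100%. In these simulations the block also made 8 false calls among guides and 13 among sums, and the fit without it made 0. An adjusted p under 0.05 allows a share of false calls. The counts were drawn from means of each replicate number with the dispersions of the blocked fit, a setting that favours the block. Changes under 4-fold were not simulated. The lack of calls among guides is therefore not evidence of equal levels.

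The coactivator guides lay slightly below all guides in the middle of their distribution. Their median log2 fold change was -0.12 at 1500 against 0 µM, with 84 of 203 above 0, and the median over all tested guides was -0.08, with 4533 of 10337 above 0. With the block the medians were -0.06 and -0.02. The coactivator guides held 1.64%, 1.33% and 1.52% of the counts in replicates 1, 2 and 3 at 1500 µM, against 2.09%, 1.80% and 1.58% at 0 µM. Every numbered pair was lower at 1500 µM, by little in replicate 3.

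Module medians are given as a description, with no test between modules. The 44 tested guides of the ATAC-specific genes had a median log2 fold change of 0.25 at 1500 against 0 µM, with 30 above 0. The 49 tested guides of the acetyltransferase module had a median of -0.40, with 11 above 0. With the block the medians were 0.20 and -0.25, with 30 and 17 guides above 0. The median was -0.30 over 27 deubiquitinase guides, -0.19 over 59 SAGA core guides and 0.01 over 24 guides of TFIID-shared subunits. With the block these were -0.16, -0.07 and -0.22. With single libraries left out, the SAGA core median lay between -0.39 and 0.013, the upper value without replicate 2 at 0 µM. The TFIID-shared median lay between -0.16 without replicate 3 at 1500 µM and 0.22 without replicate 3 at 0 µM. The ATAC median was 0.05 without replicate 1 at 1500 µM, and 0.41 without replicate 2 at 0 µM or without replicate 3 at 1500 µM. The acetyltransferase median lay between -0.45 and -0.23 when single libraries were left out. The deubiquitinase median turned to 0.06 without replicate 1 at 1500 µM. Modules were drawn from the known roles of the genes with earlier results of these data in view.

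Guides were also read pair by pair, taking the difference of log2(CPM + 1) between 1500 and 0 µM in each replicate number. Of 203 coactivator guides, 29 were higher in all 3 pairs, against 12.1% of all tested guides, and 34 were lower in all 3, against 12.6%. As shares of the 203 these are 14.3% and 16.7%. The ATAC-specific guides had 11 of 44 higher and 2 of 44 lower in all pairs, and the acetyltransferase guides had 2 of 49 higher and 11 of 49 lower. The deubiquitinase guides had 1 of 27 higher and 7 of 27 lower. The SAGA core had 10 of 59 higher and 11 of 59 lower, with neither direction in excess of the other by more than 1 guide. The guides of TFIID-shared subunits had 5 of 24 higher and 3 of 24 lower.

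Among ATAC-specific genes, the summed guides of DR1 were higher in every treated pair. Its sum was 198, 184 and 188 CPM at 0 µM, 231, 196 and 191 CPM at 200 µM and 266, 259.6 and 314 CPM at 1500 µM in replicates 1, 2 and 3. The 3 libraries at 1500 µM lay above the 3 at 0 µM with no overlap. The log2 fold change of the sum was 0.69 ± 0.37 (SE) with an adjusted p of 0.9996 in edgeR, and 0.68 ± 0.28 with an adjusted p of 0.725 with the block. It kept between 0.54 and 0.79 when single libraries were left out. Without its most abundant guide, DR1.8, the value was 0.76 ± 0.43 (SE). The median over its 7 tested guides was 0.57, with 5 above 0. The guide with its lowest p, DR1.1, had 4.31, 22.9 and 38.2 CPM at 1500 µM against 4.87, 5.76 and 4.92 CPM at 0 µM, a log2 fold change of 2.04 ± 1.35 (SE). Replicate 1 did not share that difference. DR1.1 had 8, 12 and 10 counts at 0 µM. Of the 7 tested guides, 1 was higher and 1 lower in all 3 pairs.

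ZZZ3 and POLE3 had smaller differences. The ZZZ3 sum was 513, 530.2 and 219.9 CPM at 1500 µM against 499.6, 529.7 and 138 CPM at 0 µM, so it was nearly equal in replicates 1 and 2 and higher in replicate 3. Its log2 fold change was 0.26 ± 0.53 (SE), and -0.12 without replicate 3 at 0 µM. The POLE3 sum was 256, 175 and 229 CPM at 1500 µM against 163, 176 and 296 CPM at 0 µM, higher in replicate 1, close in replicate 2 and lower in replicate 3. Its log2 fold change was 0.17 ± 0.46 (SE), and -0.01 without replicate 1 or 2 at 0 µM. POLE3.4, the POLE3 guide with the most counts, had 116, 54.4 and 73.9 CPM at 1500 µM against 68.2, 60.0 and 94.0 CPM at 0 µM. It was higher in replicate 1 and lower in replicates 2 and 3.

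For MBIP the sum lay below 0 and the guide median above 0 in the fit without the block. The sum was 1466, 381 and 817 CPM at 1500 µM against 2107, 307 and 889.7 CPM at 0 µM, a log2 fold change of -0.17 ± 0.71 (SE), and 0.0087 ± 0.18 with the block. Without its most abundant guide the value was 0.24 ± 0.57, and 0.23 ± 0.17 with the block (SE). The median over its 10 guides was 0.33, with 7 above 0, and 4 of 10 were higher in all 3 pairs while none was lower in all 3. MBIP.6 held much of the sum in replicate 1, with 158, 13.8 and 195 CPM at 1500 µM against 1005, 6.24 and 243 CPM at 0 µM. It was lower in replicates 1 and 3 and higher in replicate 2. MBIP.9 had 55.6, 72.5 and 28.5 CPM against 16.5, 35.1 and 13.3 CPM, a log2 fold change of 1.25 ± 0.84 (SE). MBIP.1 had 320.1, 33.9 and 12.2 CPM against 145, 17.8 and 3.94 CPM, and its log2 fold change was 1.11 ± 1.54 (SE), or 1.17 ± 0.40 with the block. Both guides were higher in every pair, and the adjusted p of each with the block was 0.999 in edgeR.

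YEATS2 guides were mixed. YEATS2.3 had 42.3, 61.1 and 118 CPM at 1500 µM against 12.2, 29.3 and 66.4 CPM at 0 µM, higher in all pairs, with a log2 fold change of 1.02 ± 0.86 (SE). The summed guides of the gene had -0.08 ± 0.44 (SE), and 5 of 9 tested guides were above 0. The YEATS2 sums were 871, 481 and 426 CPM at 1500 µM against 1042, 668 and 377 CPM at 0 µM, lower in replicates 1 and 2 and higher in replicate 3.

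In the acetyltransferase module, all 5 genes had a summed log2 fold change below 0 at 1500 against 0 µM, between -0.14 for KAT2A and -0.47 for TADA2B. Over all 1117 genes the median was -0.03, with 617 below 0. TADA2B had 1026, 367 and 415 CPM at 1500 µM against 1677, 519.6 and 572 CPM at 0 µM. It was lower in every pair, although the ranges of the doses overlapped because replicate 1 was high at both. Its log2 fold change was -0.47 ± 0.57 (SE) with an adjusted p of 0.9996 in edgeR, and -0.43 ± 0.15 with an adjusted p of 0.606 with the block. Without replicate 1 at 0 µM the unblocked value was 0.25. Of its 10 guides 9 were below 0, and 5 were lower in all 3 pairs while none was higher. TADA2B.3 had 7.90, 0 and 23.5 CPM against 64.0, 20.6 and 79.7 CPM, a log2 fold change of -2.39 ± 1.54 (SE). TADA2B.9 had 23.3, 16.2 and 27.7 CPM against 47.5, 27.9 and 101 CPM, with -1.41 ± 0.82 (SE). The libraries at 1500 µM lay below those at 0 µM for TADA2B.9, and overlapped for TADA2B.3.

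TADA3 and CCDC101 also had most guides below 0. The TADA3 sum was 417, 297 and 338 CPM at 1500 µM against 651, 395 and 355 CPM at 0 µM, lower in every pair, with a log2 fold change of -0.27 ± 0.37 (SE). Its guide median was -0.56 over 9 tested guides. CCDC101 had 786, 737 and 644 CPM against 1115, 852 and 684 CPM, again lower in every pair, with -0.16 ± 0.29 (SE) for the sum, and 9 of its 10 guides were below 0. Both had an adjusted p of 0.9996 in edgeR.

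KAT2A sums were 847, 596 and 1054 CPM at 1500 µM against 1191, 724 and 1110.2 CPM at 0 µM, with -0.14 ± 0.37 (SE), and KAT2B sums were 1390.0, 1478 and 1043 CPM against 1793, 2157 and 1017 CPM, with -0.20 ± 0.34 (SE). KAT2B was lower in replicates 1 and 2 and close to equal in replicate 3. The guide medians were -0.22 for KAT2A and -0.13 for KAT2B, with 2 and 4 of 10 guides above 0. With the block the medians were 0.018 and 0.14, with 5 of 10 guides above 0 for each gene. KAT2B.6 had 15.8, 43.0 and 19.3 CPM against 331, 58.6 and 24.1 CPM, a log2 fold change of -2.44 ± 1.09 (SE). Most of that came from replicate 1 at 0 µM, without which it was -0.68.

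In the SAGA core, TADA1 had the lowest p of the sums. It had 2273, 1362 and 797 CPM at 0 µM, 1251, 1131 and 670.3 CPM at 200 µM and 1006, 1051 and 579.5 CPM at 1500 µM, so the sum was lower at each dose step in each replicate number. At 1500 against 0 µM its log2 fold change was -0.62 ± 0.41 (SE) with an adjusted p of 0.9996 in edgeR, and -0.54 ± 0.17 with an adjusted p of 0.466 with the block. The groups overlapped, since replicate 3 was low at every dose. Leaving out single libraries gave -0.88 to -0.18. TADA1.1 had 91.5, 68.2 and 60.0 CPM at 1500 µM against 1044, 132 and 98.9 CPM at 0 µM, with no overlap. Its log2 fold change was -2.57 ± 1.09 (SE), and -0.67 without replicate 1 at 0 µM. It was the single coactivator guide with an unadjusted p under 0.05 in the unblocked edgeR fit, and its adjusted p rounded to 1.00. TADA1.10, the TADA1 guide with the most counts, had 75.4, 592 and 131 CPM against 76.8, 704 and 281 CPM. Of 10 TADA1 guides 7 were below 0.

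SUPT20H had 1444, 1485 and 1061 CPM at 1500 µM against 3637, 1487 and 998 CPM at 0 µM, a log2 fold change of -0.48 ± 0.47 (SE). Replicate 1 at 0 µM decided that value, and without it the value was 0.22. SUPT20H.7 had the largest part of that library's sum, with 374, 113 and 347 CPM against 1981, 91.2 and 302 CPM. The other core genes had summed log2 fold changes of -0.11 ± 0.32 for TAF6L, -0.06 ± 0.42 for SUPT7L, 0.04 ± 0.30 for TAF5L and 0.11 ± 0.39 for SUPT3H (SE). SUPT7L.8 went the other way from its gene, with 8.25, 59.7 and 39.0 CPM against 0, 20.2 and 7.87 CPM, higher in every pair at low counts (1.90 ± 1.61, SE).

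The deubiquitinase USP22 had 694, 1158 and 709 CPM at 1500 µM against 1207, 2037 and 751 CPM at 0 µM. It was lower in every pair, by little in replicate 3, and the groups overlapped. Its log2 fold change was -0.50 ± 0.38 (SE) with an adjusted p of 0.9996 in edgeR, and -0.44 ± 0.17 with an adjusted p of 0.656 with the block. Of 9 tested guides 8 were below 0, with a median of -0.70. Leaving out single libraries gave -0.75 to -0.13 for the sum, the value nearest 0 without replicate 2 at 0 µM. ATXN7 sums were 807, 1321 and 1207 CPM against 946, 1934 and 1330.2 CPM, with -0.21 ± 0.36 (SE), lower in every pair. ENY2 sums were 146, 343 and 204 CPM against 238, 248 and 183 CPM, with 0.17 ± 0.43 (SE), and replicate 1 differed in direction from replicates 2 and 3. Without replicate 2 at 1500 µM the ENY2 value was -0.16.

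Among the TFIID-shared subunits, the log2 fold changes of the sums were -0.18 ± 0.42 for TAF9, -0.18 ± 0.39 for TAF12 and 0.07 ± 0.48 for TAF10 (SE). TAF9 had 855, 835 and 429 CPM at 1500 µM against 857, 1354 and 450.3 CPM at 0 µM, lower in replicate 2 and nearly equal in the other pairs. TAF10 had 309, 150.3 and 326 CPM against 324, 179.6 and 319.9 CPM, and TAF12 had 252, 394 and 426 CPM against 385, 363 and 558 CPM. With the block the sums had -0.13 ± 0.18 for TAF9, -0.17 ± 0.22 for TAF12 and 0.03 ± 0.26 for TAF10 (SE). Whether differences of the size of these SEs can be detected with 3 libraries per dose was not tested.

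At 200 against 0 µM edgeR called 0 of 203 coactivator guides and 0 of 22 sums, with or without the block, against 0% of all guides and genes. Among sums, 0 of 22 had an unadjusted p under 0.05 against 0% of all genes, and 2 of 22 against 5.37% with the block. At an unadjusted p under 0.05 it gave 0 coactivator guides against 0.135% of all guides without the block, and 11 of 203 against 2.23% with it. DESeq2 without the block gave 1 against 0.387%. The median guide log2 fold change was -0.12 over the coactivator guides and -0.09 over all. Of the 203 guides 18 were higher in all 3 pairs, against 10.1% of all guides, and 28 were lower, against 13.8%. With CPM on total counts in place of TMM-scaled totals, 27 were higher, against 15.5% of all guides, and 23 were lower, against 8.46%. Sums were higher in all 3 pairs for 1 of 22 genes, DR1, against 6.18% of all genes, and lower for 12, against 30.9%. In each comparison these pair counts of sums were made with TMM-scaled CPM alone. The TMM factors were higher at 200 µM than at 0 µM in each replicate number. They were 1.09, 0.975 and 1.15 at 200 µM against 0.886, 0.902 and 1.10 at 0 µM. A higher factor lowers the scaled CPM, so the count of lower sums can rest in part on this scaling. How many sums keep their direction on total counts was not tested.

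In edgeR without the block, TADA1 had the lowest p among sums that were lower at 200 µM, with -0.42 ± 0.41 (SE). With the block TADA3 had the lowest, an edgeR unadjusted p of 0.0373 against 0.0413 for TADA1. Of the 10 TADA1 guides, 4 were lower in all 3 pairs. Without replicate 1 at 0 µM the unblocked TADA1 value was 0.03. TADA3 sums were 507, 262 and 204 CPM at 200 µM against 651, 395 and 355 CPM at 0 µM, lower in every pair, with -0.41 ± 0.45 (SE), and -0.10 without replicate 1 at 0 µM. TADA2B sums were 923, 508 and 470.3 CPM against 1677, 519.6 and 572 CPM, with -0.42 ± 0.52 (SE), and 0.32 without replicate 1 at 0 µM. KAT2B sums were 1158, 1841 and 896 CPM against 1793, 2157 and 1017 CPM, with -0.25 ± 0.37 (SE), and -0.036 without replicate 2 at 0 µM. All 4 genes had an adjusted p of 0.998 in edgeR and 0.811 with the block. Among sums with a log2 fold change above 0, DR1 had 0.22 ± 0.39, POLE3 0.23 ± 0.46, ENY2 0.18 ± 0.42 and CCDC101 0.03 ± 0.34 (SE). POLE3 sums were 267, 182 and 246 CPM at 200 µM against 163, 176 and 296 CPM at 0 µM, higher in replicates 1 and 2 and lower in replicate 3. ENY2 sums were 178, 360.5 and 175 CPM against 238, 248 and 183 CPM, higher in replicate 2 and lower in replicates 1 and 3. CCDC101 sums were 1092, 835 and 592 CPM against 1115, 852 and 684 CPM, lower in every pair although the fitted value lay just above 0. The CPM used TMM factors from guide counts over all 9 libraries, and the fit used factors from the sums in its 6 libraries. How far the direction of the pairs depends on that scaling was not tested. Of these 4 genes, DR1 alone was higher in every pair. Its guide median was -0.03, with 3 of 7 above 0, and 0 of 7 guides were higher or lower in all 3 pairs.

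The 2 guides of lowest p at 200 against 0 µM each had 1 high library at 0 µM. KAT2B.6 had 24.3, 36.3 and 10.2 CPM at 200 µM against 331, 58.6 and 24.1 CPM at 0 µM, with -2.61 ± 1.12 (SE), and TADA1.1 had 215, 66.8 and 61.3 CPM against 1044, 132 and 98.9 CPM, with -1.93 ± 1.17 (SE). Both were lower in every pair, and both values depended on replicate 1 at 0 µM, without which they were -0.84 and -0.02. SUPT7L.10 had 44.6, 84.4 and 37.0 CPM against 114, 152 and 69.9 CPM, lower in every pair, with -1.06 ± 0.69 (SE) and no such library. TADA2B.3 had 5.30, 29.5 and 24.3 CPM against 64.0, 20.6 and 79.7 CPM, higher in replicate 2 and lower in replicates 1 and 3, with -1.51 ± 1.01 (SE). On the higher side, POLE3.1 had 64.5, 5.18 and 4.23 CPM against 4.26, 3.84 and 10.3 CPM, so its 1.99 ± 1.56 (SE) came from replicate 1. YEATS2.6 had 125, 61.6 and 44.1 CPM against 81.6, 18.2 and 4.92 CPM, higher in every pair, with 1.11 ± 1.10 (SE). KAT2B.8 had 133, 49.2 and 15.5 CPM against 57.9, 30.3 and 24.1 CPM, higher in replicates 1 and 2 and lower in replicate 3, with 0.79 ± 0.96 (SE). ENY2.5 had 15.9, 15.0 and 28.6 CPM against 4.87, 4.80 and 18.7 CPM, higher in every pair, with 1.06 ± 1.30 (SE).

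Between the drug doses, at 1500 against 200 µM, edgeR called no coactivator guide or sum, with or without the block, against 0% of all guides and genes. DESeq2 with the block called 14 guides as higher and 29 as lower over the whole table, 0.135% and 0.281% of all guides, and no coactivator guide was among them. That fit gave an adjusted p to 90 of the 203 coactivator guides and to 4926 of all 10337, so the other guides could not be called. It also called 0.537% of all sums as higher and 1.61% as lower, with 0 of the 15 coactivator sums that had an adjusted p. The 7 without one included DR1 and ZZZ3, whose unadjusted p was 0.0311 and 0.0396. USP22 had the lowest adjusted p of the 15, 0.0564 in DESeq2. At an unadjusted p under 0.05 the unblocked edgeR fit gave 0 coactivator guides against 0.203% of all guides, and DESeq2 gave 0 against 0.319%. With the block edgeR gave 2 of 203 guides against 1.95%, and 1 of 22 sums against 6.62%, where without it 0 of 22 sums stood against 0.0895%. The guide median was -0.02 over the coactivator guides and 0.01 over all. Of 203 guides 32 were higher in all 3 pairs, against 13.3% of all guides, and 24 were lower, against 11.5%. With CPM on total counts, 21 were higher, against 8.52% of all guides, and 36 were lower, against 16.5%. Sums were higher in all 3 pairs for 3 of 22 genes, against 12.1% of all genes, and lower for 5, against 15.8%.

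In all pairs of 1500 with 200 µM, 12 of 44 ATAC-specific guides were higher and 2 of 44 lower. Over all guides these shares were 13.3% and 11.5%. DR1 alone had 5 of 7 tested guides higher. The SAGA core had 11 and 7 of 59, and the acetyltransferase module 5 and 6 of 49. The deubiquitinase module had 2 and 6 of 27, and the TFIID-shared subunits 2 and 3 of 24. At 200 against 0 µM the ATAC-specific guides had 4 and 3 of 44, against 10.1% and 13.8% of all guides. These module counts were made with TMM-scaled CPM alone. The DR1 sum had 0.46 ± 0.35 (SE), ZZZ3 0.34 ± 0.45, SUPT3H 0.14 ± 0.38 and TADA3 0.12 ± 0.43. Of these, SUPT3H and TADA3 changed sign when single libraries were left out, and ZZZ3 was 0.053 without replicate 3 at 200 µM. USP22 had -0.31 ± 0.32, CCDC101 -0.21 ± 0.30, TADA1 -0.21 ± 0.33 and SUPT20H -0.16 ± 0.29 (SE), and the adjusted p was 0.999 for these 8 sums in edgeR. Without replicate 2 at 200 µM the USP22 value was -0.025, and without replicate 1 at 200 µM the TADA1 value was -0.0063. With the block USP22 had -0.29 ± 0.11, and -0.068 ± 0.14 without its most abundant guide, USP22.2 (SE). ZZZ3 sums were 513, 530.2 and 219.9 CPM at 1500 µM against 389, 448 and 173 CPM at 200 µM, higher in every pair, and USP22 sums were 694, 1158 and 709 CPM against 839.5, 1578 and 804 CPM, lower in every pair. SUPT3H sums were 652, 1202 and 694 CPM against 509, 1266 and 577 CPM, higher in replicates 1 and 3 and lower in replicate 2, and TADA3 sums were 417, 297 and 338 CPM against 507, 262 and 204 CPM, higher in replicates 2 and 3 and lower in replicate 1. In TMM-scaled CPM, ZZZ3 and USP22 thus had opposite directions that all 3 pairs shared. The TMM factors were 0.998, 0.824 and 1.13 at 1500 µM against 1.09, 0.975 and 1.15 at 200 µM. Lower factors raise the scaled CPM at 1500 µM. Whether ZZZ3 was higher in every pair on total counts was not tested. CCDC101 sums were 786, 737 and 644 CPM against 1092, 835 and 592 CPM, higher in replicate 3 and lower in replicates 1 and 2. SUPT20H sums were 1444, 1485 and 1061 CPM against 1909, 1501 and 1074 CPM, lower in replicate 1 and nearly equal in replicates 2 and 3.

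Among guides of lowest p at 1500 against 200 µM, KAT2A.1 had 115, 106 and 140.2 CPM at 1500 µM against 59.2, 77.2 and 71.2 CPM at 200 µM, with 0.81 ± 0.56 (SE) and no overlap. SUPT7L.5 had 46.7, 42.0 and 38.2 CPM against 11.5, 28.5 and 10.9 CPM, also without overlap, with 1.34 ± 0.89 (SE). SUPT3H.4 had 16.9, 14.3 and 79.3 CPM against 19.9, 3.63 and 4.58 CPM, higher in replicates 2 and 3 and lower in replicate 1, with 1.97 ± 1.30 (SE). Most of that difference lay in replicate 3. YEATS2.3 had 42.3, 61.1 and 118 CPM against 30.5, 49.7 and 36.7 CPM, higher in every pair, with 0.94 ± 0.71 (SE). On the lower side KAT2B.1 had 10.8, 18.1 and 10.5 CPM against 45.5, 34.7 and 12.0 CPM, lower in every pair, with -1.22 ± 1.07 (SE). ENY2.5 had 5.74, 7.16 and 8.39 CPM against 15.9, 15.0 and 28.6 CPM, lower in every pair, with -1.48 ± 1.32 (SE). POLE3.1 had 16.2, 4.30 and 2.52 CPM against 64.5, 5.18 and 4.23 CPM, lower in every pair, with -1.68 ± 1.64 (SE). SUPT20H.10 had 77.9, 30.1 and 44.9 CPM against 159, 39.4 and 66.6 CPM, lower in every pair, with -0.80 ± 0.78 (SE). The comparisons share libraries and are not independent of each other.

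Over all 3 doses, 1 coactivator gene had a sum that was higher at both dose steps in all 3 replicate numbers, and this was DR1, against 0.269% of all genes (3 of 1117). One was lower at both steps in all 3 numbers, and this was TADA1, against 3.67% (41 of 1117). With CPM on total counts these were 7 and 18 of 1117 genes, with DR1 and TADA1 again the coactivator genes. This count was added after the sums were seen, and carries no test. Without the most abundant guide of each gene, neither kept this order, and over all 1117 genes 1 was higher and 17 were lower at both steps. The log2 fold change of TADA1 at 1500 against 0 µM was then -0.80 ± 0.56 (SE). In TMM-scaled CPM, sums that were lower in all 3 pairs at 1500 against 0 µM were common, with 9 of 22 coactivator genes and 30.1% of all genes. These were ATXN7, CCDC101, KAT2A, SUPT7L, TADA1, TADA2B, TADA3, TAF9 and USP22. In replicate 1 TAF9 had 855 CPM at 1500 µM against 857 CPM at 0 µM, and SUPT7L had 499.6 against 552 CPM. The TMM factors of these libraries were 0.998 and 0.886. Whether each gene stays lower in all 3 pairs on total counts was not tested. Sums higher in all 3 pairs were DR1 and ZZZ3, 2 of 22, against 6.36% of all genes.

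Other coactivator and transcription genes in the library were tested in the same fits of sums. The 5 further SAGA and ATAC genes, ATXN7L3, CSRP2BP, TRRAP, USP27X and WDR5, had a median guide level of 20.7 CPM at 0 µM and a median summed log2 fold change of -0.10 at 1500 against 0 µM. None of them passed in either direction, with or without the block, in any comparison. The 15 Mediator genes, of the complex that bridges activators and polymerase, were scarce at 0 µM, with a median of 14.2 CPM, and had a median of -0.04 with none passing. The 7 other acetyltransferase genes, among them EP300 and CREBBP, had 54.9 CPM and 0.07, again with none passing. EP300 had 1.55 ± 0.57 (SE) with an unadjusted p of 0.0248 and an adjusted p of 0.9996 in edgeR, and 1.49 ± 0.41 with an adjusted p of 0.359 with the block. Of 5 genes that place ubiquitin on histone H2B, the mark that USP22 removes, only UBE2A passed, as higher at 1500 against 0 µM with the block (4.05 ± 0.56, SE, edgeR adjusted p = 0.00518). Without the block UBE2A had 4.09 ± 1.16 (SE) with an edgeR adjusted p of 0.9996. At 1500 against 200 µM it had 3.32 ± 2.14 (SE) with the block and did not pass. RNF40, the ligase subunit, had 0.65 ± 0.27 (SE) at 1500 against 0 µM with the block, with an edgeR adjusted p of 0.725. MNAT1, a kinase assembly factor of TFIIH, was the single gene measured from a list of general transcription factors outside the coactivator genes. It had 4.78 CPM at 0 µM.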

How the data were processed

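The deposited file holds whole-number counts for each sgRNA in 9 libraries, and they were used without change. Per the submitters' processing notes, cutadapt 1.18 and MAGeCK 0.5.8 were used and hg19 was the build. Mismatch settings and filters: not given in the sources used here. All 9 value columns were mapped through the sample titles. Of 22 target symbols, 21 were current in a RefSeq gene table of GRCh38.p14 and CCDC101 was matched to SGF29.

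Guides reaching 10 counts in 3 or more of the 9 libraries were tested with edgeR 4.0.16 (TMM, robust quasi-likelihood) on the 6 libraries of a pair of doses, with no block, adjusting p-values over all guides by Benjamini-Hochberg. Sums over guides were tested likewise over all genes, and DESeq2 1.42.0 was an alternative. Each SE is approximate, found by dividing the size of the log2 fold change by the root of its F statistic. R 4.3.3 and Python 3.11.15 were used. CPM values of guides and of sums were scaled by TMM factors from the tested guides of all 9 libraries, with a pseudocount of 1 for paired differences. Each fit computed its own factors. A count of 0 allows up to 3 counts, or 1.06 to 1.83 CPM. Molecular identifiers were not stated, so this covers counting error only.

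Same-numbered libraries were treated as pairs: deviations from dose means correlated at 0.67 to 0.78 in 9 same-numbered pairs of libraries, and the rule was above 0.1 in all. What the numbers mark is not stated. The fits were tested on simulated data. The guides, modules and lists were chosen with earlier results of these data known. Named with values were, per comparison and direction, the 4 sums and 4 guides of lowest p, any past the threshold, the 3 most and least abundant tested guides at 0 µM, and MBIP, DR1 and POLE3. Guides of these genes and carriers of a sum, such as MBIP.1, TADA1.10, POLE3.4 and SUPT20H.7, and the genes EP300 and RNF40 were added after their values were seen. A list of polymerase epsilon partners had no measured gene.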

Additional observations from a re-analysis of the deposited data

How the results depend on the processing

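Counts of called coactivator guides and sums were 0 in all 3 comparisons under every alternative run: the replicate block, DESeq2 with or without it, no count filter, at least 50 counts, RLE size factors, all 9 libraries, each library left out, and sums without the top guide. DESeq2 with the block gave no adjusted p to 113 of 203 coactivator guides and 7 of 22 sums at 1500 against 200 µM. The replicate block changed no call, and with it the median over coactivator guides was -0.06, -0.08 and 0.05 in the comparisons of 1500 with 0, 200 with 0 and 1500 with 200 µM. The median guide log2 fold change ranged from -0.16 to 0.041 at 1500 against 0 µM, from -0.22 to 0.037 at 200 against 0 µM and from -0.11 to 0.11 at 1500 against 200 µM with single libraries left out, so its direction is not fixed. With CPM on total counts, 21 guides in place of 32 were higher in all pairs of 1500 with 200 µM, against 8.52% in place of 13.3% of all guides. Without top guides, 0 coactivator sums were ordered over the doses in either direction, against 1 (higher) and 17 (lower) of all 1117. Of 48 named values none changed sign with the block. The MBIP sum at 1500 against 0 µM, not among them, was -0.17, against 0.0087 with the block, 0.24 without its top guide, 0.23 with both changes, and -0.73 to 0.64 with single libraries left out. With single libraries left out, ZZZ3 (-0.12 to 0.53), ENY2 (-0.16 to 0.40), POLE3 (-0.014 to 0.58), SUPT20H (-0.78 to 0.22) and TADA2B (-1.10 to 0.25) changed sign at 1500 against 0 µM, and ENY2 (-0.15 to 0.35), CCDC101 (-0.20 to 0.23), TADA1 (-0.69 to 0.028), TADA2B (-0.79 to 0.32), POLE3.1 (-0.38 to 2.62) and KAT2B.8 (-0.21 to 1.29) at 200 against 0 µM. At 1500 against 200 µM these were SUPT3H (-0.13 to 0.56), TADA3 (-0.10 to 0.63), CCDC101 (-0.37 to 0.049), SUPT20H (-0.32 to 0.072) and POLE3.1 (-2.87 to 0.73). The cause was not tested. Depth limits the guides under 10 CPM, 39 of 220 (17.7%), close to the 16.1% of all guides.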
